A study of Homo sapiens with 60 samples.

Results

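The genes described are 8 that make, recycle, spend or export glutathione: GCLC, GCLM, GSS, GSR, GPX2, GPX4, MGST1 and ABCC3. They were taken by symbol from the 60675 genes of the count table, after matching Ensembl identifiers to symbols. All 8 were found and all 8 were among the 16093 genes that passed the filter on low counts. RNA was sequenced from HepG2, an established line of human hepatocellular carcinoma cells, in 60 libraries that form 20 groups of 3. All groups were harvested after 24 h. The vehicle group was labelled 0.1% DMSO, although the text on the series gives 2%. Wortmannin, which inhibits phosphoinositide 3-kinase, was given at 10 µM. The other 18 groups received a hot water extract at 20, 100 or 500 µg/mL. The extracts, with the short names used from here on, were Poria Cocos (Poria) and Atractylodis Rhizoma (Atractylodes), then licorice (labelled Glycyrrhizae Radix) and ginseng (Panax Ginseng), and lastly angelica (Angelicae Gigantis Radix) and peony (Paeoniae Radix). A single tumour line stands for hepatocytes here, and the labels do not name the cultures behind the 3 libraries of each group, so p-values measure the spread between these libraries, which may be technical.

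Glutathione is a tripeptide of glutamate, cysteine and glycine, and the liver is its main site of synthesis. Glutamate-cysteine ligase, built from the catalytic subunit GCLC and the modifier subunit GCLM, performs the rate-limiting step, and glutathione synthetase (GSS) adds the glycine. Peroxidases such as GPX2 and GPX4 oxidise glutathione while reducing peroxides, glutathione reductase (GSR) restores it, transferases such as MGST1 join it to reactive compounds, and pumps such as ABCC3 carry conjugates out of the cell. Several of these genes are textbook targets of the transcription factor NRF2, which pairs with small MAF proteins on antioxidant response elements, is held down by KEAP1 and competes with the repressor BACH1.

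The antioxidant response element was searched in RefSeq promoters of GRCh38.p14 because it is the known element of NRF2 targets. The search used the core TGACNNNGC on both strands (GCNNNGTCA on the other) in the 250 bases before each start site. The table held 9 such windows for 5 of the 8 genes (GCLC, GCLM, GPX2, GPX4 and MGST1). A match was found for GCLM and for GPX2, and 10.9% of all 35116 windows held at least 1. The sequences of these 2 genes are shown because they hold the match, which is in capitals, and bases that GENCODE v29 places inside a transcript of the gene are left out except around the match.
GCLM: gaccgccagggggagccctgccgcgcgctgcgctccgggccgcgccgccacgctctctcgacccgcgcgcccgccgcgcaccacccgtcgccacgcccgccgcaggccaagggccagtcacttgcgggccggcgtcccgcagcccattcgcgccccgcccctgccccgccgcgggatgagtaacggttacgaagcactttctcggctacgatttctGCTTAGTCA
GPX2: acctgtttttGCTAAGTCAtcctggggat
The GCLM sequence is the minus strand of chr1:93909456-93909680, and its match lies 34 to 26 bases before the start site. The GPX2 sequence is the minus strand of chr14:64942849-64942877, with the match 122 to 114 bases before the RefSeq start. A longer GPX2 transcript in GENCODE v29 includes that stretch in its first exon. A match describes letters only, and windows without a match (GCLC, GPX4 and MGST1) say nothing of elements elsewhere.

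Library totals lay between 20.9 M and 33.4 M counts. The smallest count of any of the 8 genes in any library was 714 (GCLM), so counting error was small throughout. Levels are given as CPM, which are counts scaled to the size of the library, with TMM factors applied. Every sample title, vehicle and wortmannin included, reads BatchA. The sample descriptions begin with a number, called a set here, whose meaning is not given. Poria and Atractylodes share a set, licorice and ginseng share another, and so do angelica and peony, while vehicle and wortmannin carry other marks. Comparisons with the vehicle group therefore cannot be told apart from differences between sets or in DMSO, and all of them share the same 3 vehicle libraries. Comparisons between doses of an extract lie within a set. All 10 hepatocyte markers averaged at least 100 CPM. Of 10 blood cell markers 8 averaged under 1 CPM, with 2 at 0 in every library, and LYZ accounted for nearly all of their sum of 1276 to 2992 CPM. Of 10 stromal markers 8 averaged under 1 CPM (sum 37 to 79.9 CPM).

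**Figure D1:**
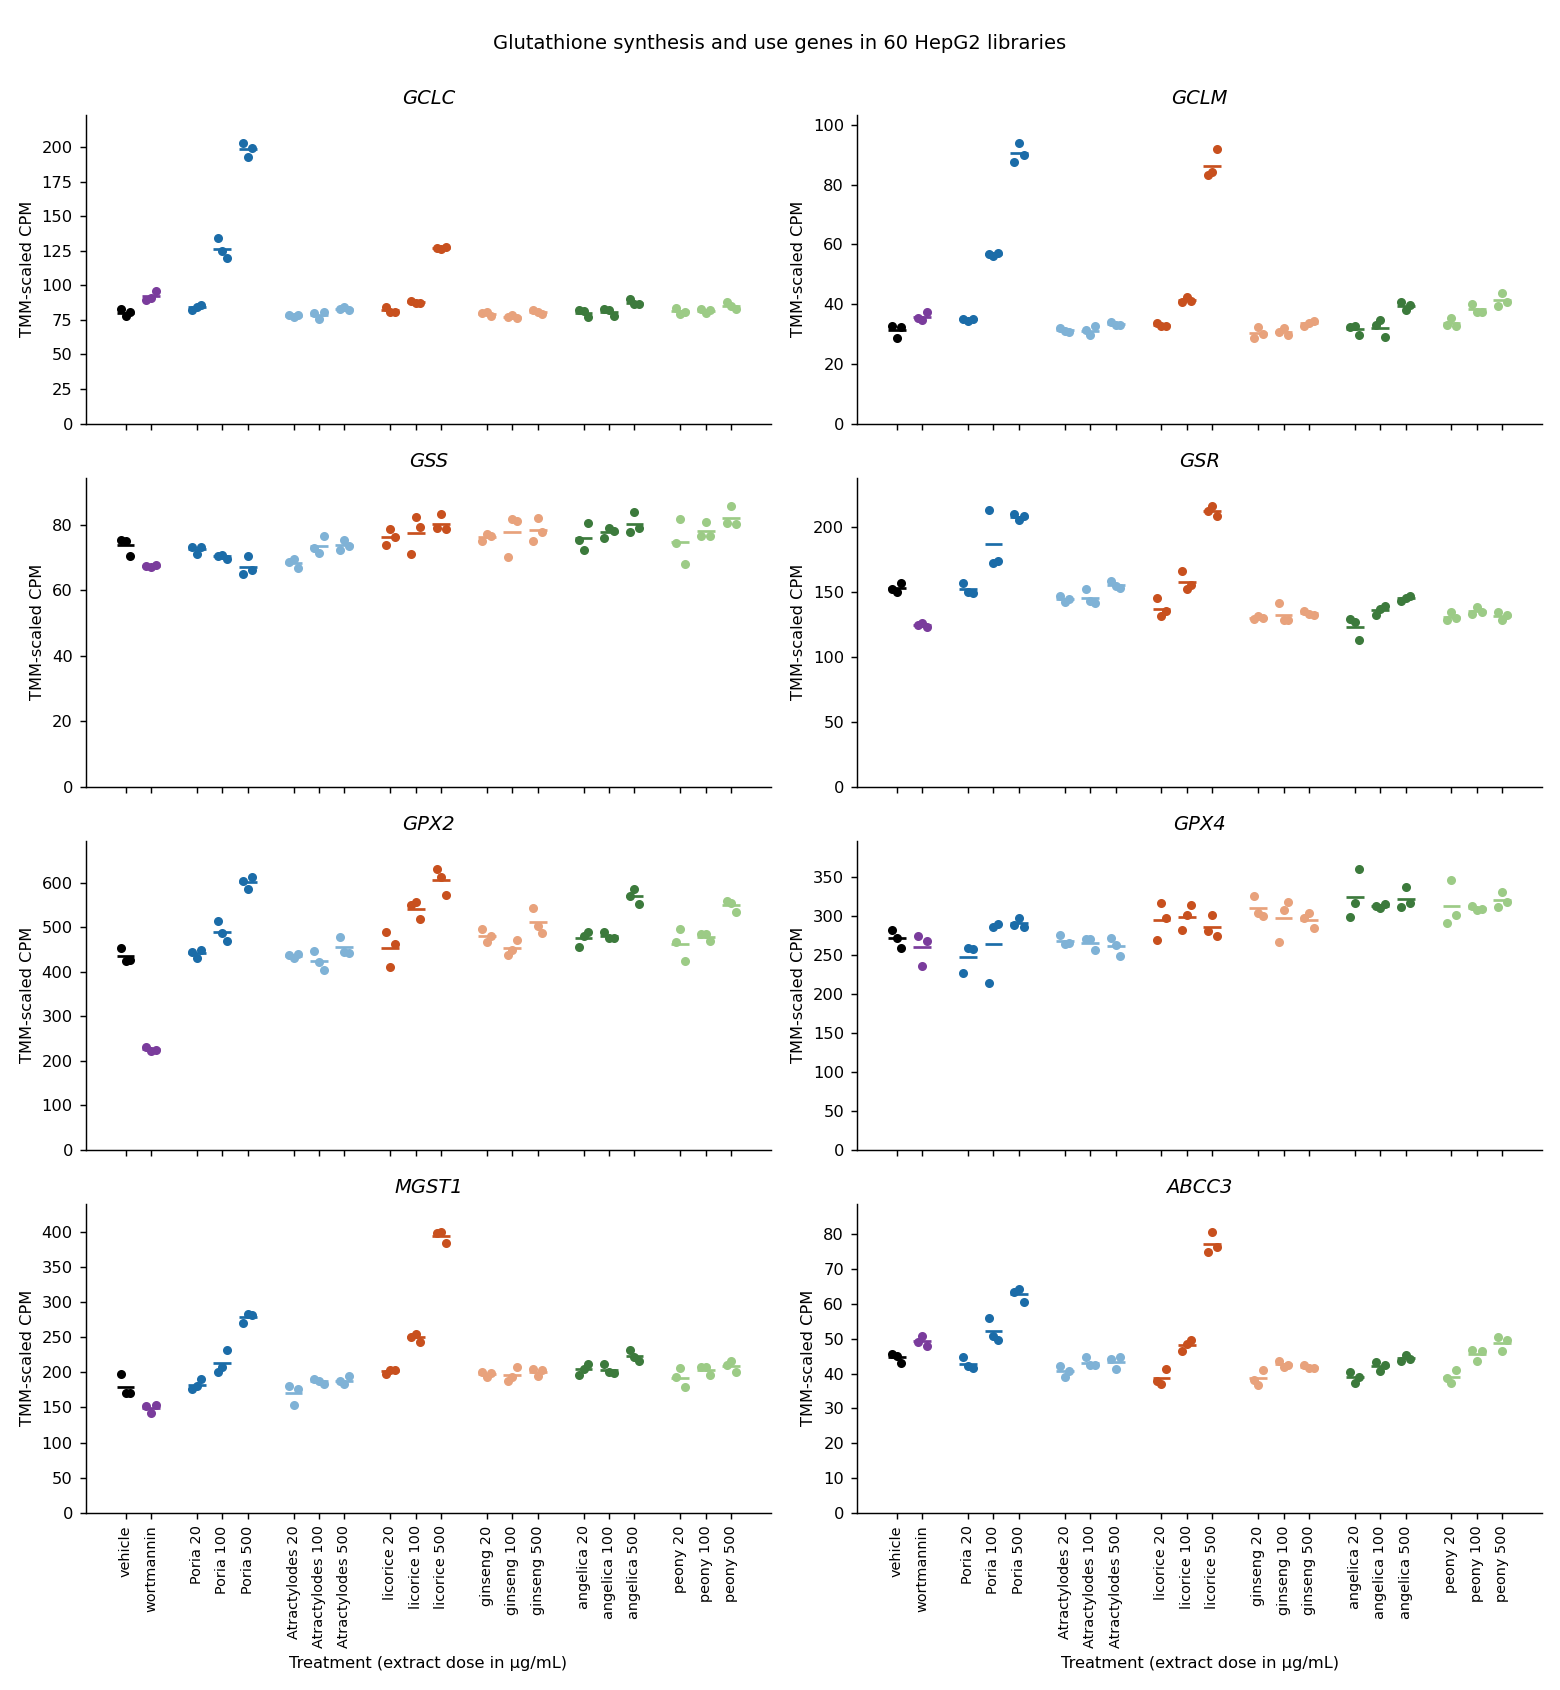
Level of each of the 8 genes (vertical axis, TMM-scaled CPM from 0) in every library of the 20 groups (horizontal axis; extract doses in µg/mL). Points are libraries and bars are means of 3; GCLC and GCLM stand highest with Poria at 500 µg/mL (means of 199 and 90.5 CPM), and MGST1 and ABCC3 with licorice at 500 µg/mL (395 and 77.4 CPM).

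Between 20 and 500 µg/mL the genes rose together in Poria and licorice, rose in part in angelica and peony, and did not pass the test in Atractylodes or ginseng. With Poria 7 of the 8 were higher at 500 µg/mL (all but GSS) and none was lower. Of all genes tested 43.5% were called with Poria, 22.3% being higher. With licorice 6 were higher (GCLC, GCLM, GSR, GPX2, MGST1 and ABCC3), against 21.3% of all genes called and 11.0% higher. With angelica 4 were higher (GCLM, GSR, GPX2 and ABCC3; 1.22% of all genes called), and with peony 3 (GCLM, GPX2 and ABCC3; 3.49% called). The count was 0 with Atractylodes (0.0497% called) and with ginseng (0.149% called) in edgeR and also in DESeq2. At an unadjusted p under 0.05 it was 4 with Atractylodes (GCLC, GSS, GSR and MGST1, by 0.09 to 0.15 on the log2 scale) and 2 with ginseng (GCLM and ABCC3, at 0.15 and 0.12). The median log2 change of the 8 was 0.50 with Poria and 0.64 with licorice, beside -0.01 and 0.0 over all genes tested. It was 0.16 with angelica, 0.13 with peony, 0.10 with Atractylodes and 0.04 with ginseng. The genes were picked with earlier results of these data known, so these counts are descriptions. Markers moved in the same comparisons. With licorice 8 of the 10 hepatocyte markers were lower at 500 µg/mL (ALB, AFP, TTR, APOA1, APOB, SERPINA1, FGB and TF; median log2 change -0.32 over the 10) and HNF4A was higher (log2 0.14). With Poria 4 were higher (TTR, APOA2, APOB and SERPINA1) and 2 lower (ALB and FGB), with a median of -0.02. With angelica HNF4A was higher (log2 0.15), and with peony TTR was lower (log2 -0.34). Of the blood cell and stromal markers, Poria had LYZ (log2 0.52), CD3D and HBA1 higher and CD14 and ACTA2 (log2 -0.83) lower, and licorice had HBA1 higher and ACTA2 lower (log2 -0.35). CD3D and HBA1 stayed under 2 CPM. The calls of APOA2 and APOB with Poria, of APOA1, APOB and HNF4A with licorice and of HNF4A with angelica did not pass under every alternative. The part of these markers in the results was not tested. Of the 20 calls over dose, 15 passed under every alternative analysis that was run. The other 5 were GPX4 with Poria, GCLM, GSR and ABCC3 with angelica, and GPX2 with peony.

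**Figure D2:**
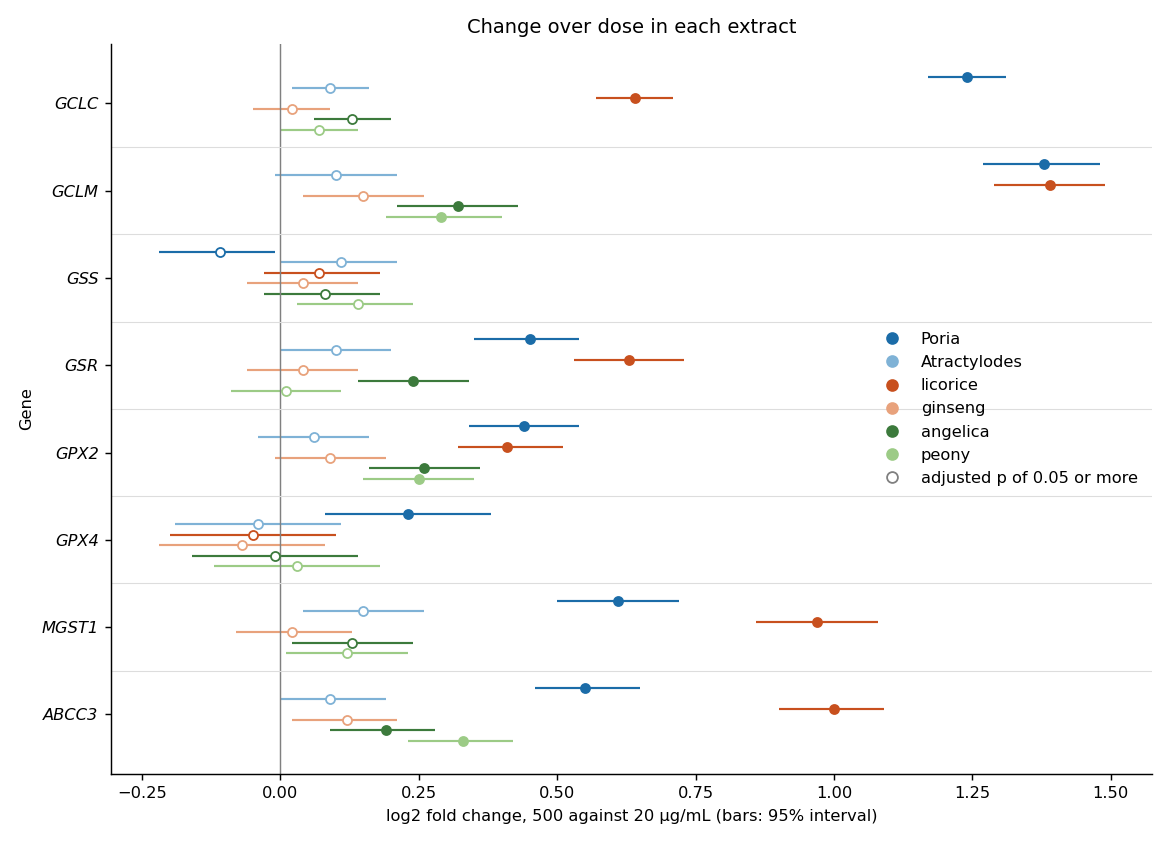
Change of each gene between 20 and 500 µg/mL (horizontal axis, log2 fold change; bars are 95% intervals) in the 6 extracts, 3 libraries per dose. Filled points passed an adjusted p of 0.05; Poria and licorice lie farthest to the right for GCLC and GCLM, with GCLM at 1.38 and 1.39 in the 2 extracts.

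GCLC, the catalytic subunit of the ligase (ENSG00000001084, chromosome 6, 53497341 to 53616970, minus strand, GRCh38), was raised most by Poria. The vehicle libraries stood at 82.9, 77.5 and 80.5 CPM. With Poria the libraries read 82.3, 84.1 and 85.9 CPM at 20 µg/mL, 134, 125 and 120 at 100 µg/mL, and 203, 193 and 199 at 500 µg/mL. No library of a higher Poria dose overlapped with a lower dose. The rise from 20 to 500 µg/mL was 2.36-fold (log2 1.24 ± 0.035, SE; adjusted p = 1.02e-32, edgeR). With licorice the libraries read 84.0, 81.0 and 80.7 CPM at 20 µg/mL, 88.8, 86.9 and 87.4 at 100 µg/mL, and 127, 126 and 128 at 500 µg/mL. Most of the licorice rise (1.55-fold, log2 0.64 ± 0.035) fell between the 2 higher doses. Licorice at 500 µg/mL reached the level of Poria at 100 µg/mL, and the libraries of these groups overlapped. Below these 3 groups came wortmannin at 92.1 ± 3.48 CPM (SD, n = 3). The remaining 16 groups had means of 77.4 to 87.7 CPM, and each overlapped with the next in order.

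GCLM, the modifier subunit (ENSG00000023909, chromosome 1, 93885205 to 93909456, minus strand), rose in 4 extracts. Poria gave 35.1, 34.5 and 35.1 CPM at 20 µg/mL, 56.8, 56.1 and 57.0 at 100 µg/mL, and 87.7, 94.0 and 89.9 at 500 µg/mL. Licorice gave 33.6, 32.8 and 32.7 CPM at 20 µg/mL, 40.8, 42.4 and 41.0 at 100 µg/mL, and 83.1, 84.1 and 92.0 at 500 µg/mL. The top levels of the 2 extracts overlapped, but the paths differed: Poria rose by 0.70 and 0.68 (log2) in its 2 steps, and licorice by 0.33 and then 1.06. Over the whole range the rises were 2.59-fold for Poria (adjusted p = 1.07e-27, edgeR) and 2.62-fold for licorice (adjusted p = 1.73e-27, edgeR). Angelica at 500 µg/mL gave 40.7, 37.9 and 39.7 CPM, above its 32.3, 32.8 and 29.6 CPM at 20 µg/mL (log2 0.32 ± 0.053, adjusted p = 0.000105, edgeR). Peony at 500 µg/mL gave 39.5, 43.8 and 40.6 CPM, above 33.0, 35.2 and 32.7 CPM at 20 µg/mL (log2 0.29 ± 0.053, adjusted p = 0.000193, edgeR). Neither extract showed overlap between these doses. For angelica, regressing on the logarithm of dose kept the change of 0.32 but took its adjusted p to 0.0536 (edgeR).

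The balance of the 2 subunits shifted with licorice. In CPM, GCLM stood at 0.389 ± 0.0155 of GCLC in vehicle (SD, n = 3). The ratio was 0.403 ± 0.00294, 0.472 ± 0.0147 and 0.679 ± 0.0335 at 20, 100 and 500 µg/mL of licorice. It was 0.415 ± 0.00997, 0.450 ± 0.025 and 0.456 ± 0.0279 at the same doses of Poria. The lowest ratio with licorice at 500 µg/mL (0.653) lay above the highest of every other group, the next being 0.515 with peony at 500 µg/mL. With wortmannin both subunits stood slightly above vehicle, at a ratio of 0.389 ± 0.00476.

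**Figure D3:**
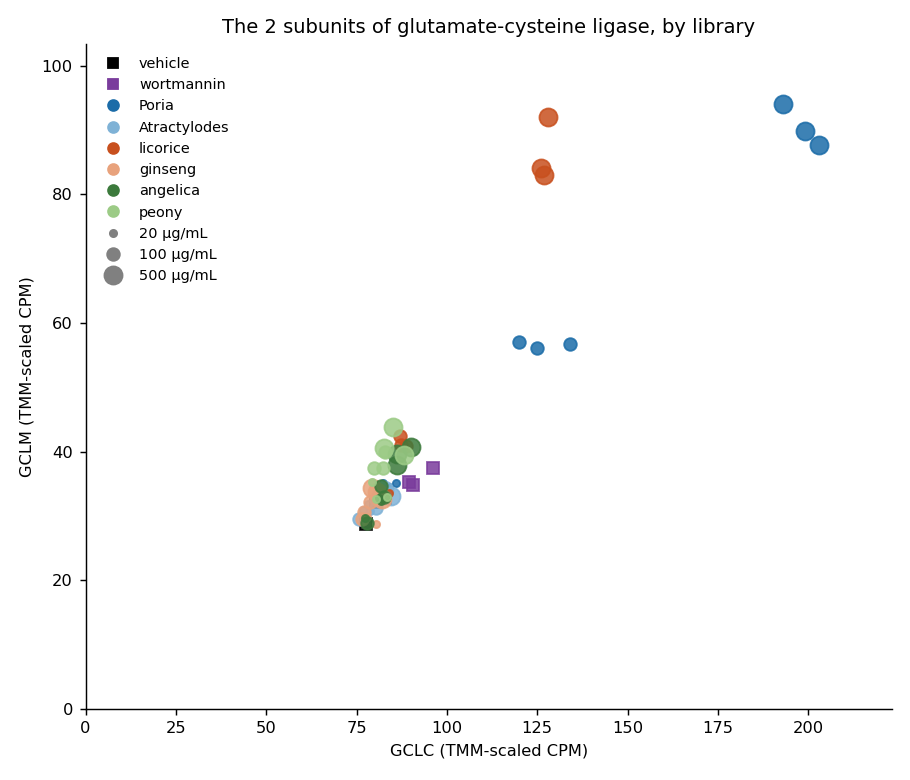
GCLM against GCLC in each of the 60 libraries (both axes TMM-scaled CPM from 0). Colour is the treatment and marker size the extract dose; libraries of licorice at 500 µg/mL lie above the path of the Poria libraries, with a mean ratio of 0.679 against 0.456.

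GSS, the synthetase of the second step (ENSG00000100983, chromosome 20, 34928433 to 34956027, minus strand), moved little. Its group means ran from 67.2 CPM (Poria, 500 µg/mL) to 82.2 CPM (peony, 500 µg/mL), a range of 1.22-fold, whereas GCLM spanned 2.99-fold. Poria gave 73.4, 71.1 and 73.2 CPM at 20 µg/mL and 65.0, 70.4 and 66.1 at 500 µg/mL. The libraries did not overlap, but the difference (log2 -0.11, 95% interval -0.22 to -0.01) missed the threshold over dose (adjusted p = 0.0822, edgeR). Without Poria 500 µg/mL replicate 2, the library nearest the low-dose group, it was -0.15 with an adjusted p of 0.0386. The trend with Poria lay below that with Atractylodes by 0.22 (log2 -0.22 ± 0.074, adjusted p = 0.0192, edgeR).

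GSR, the reductase that restores oxidised glutathione (ENSG00000104687, chromosome 8), rose with Poria, licorice and angelica. Licorice gave 145, 131 and 135 CPM at 20 µg/mL, 166, 152 and 155 at 100 µg/mL, and 212, 216 and 208 at 500 µg/mL. Poria gave 157, 150 and 149 CPM at 20 µg/mL, 213, 172 and 174 at 100 µg/mL, and 210, 205 and 208 at 500 µg/mL. The 2 extracts ended at the same height, from a lower start with licorice. The log2 changes from 20 to 500 µg/mL were 0.63 ± 0.049 with licorice and 0.45 ± 0.049 with Poria. Replicate 1 of Poria at 100 µg/mL stood apart: its GSR level was as high as at 500 µg/mL, its GPX4 level was 214 CPM beside 286 and 290, and 15.2% of its counts came from mitochondrial genes, the highest share of the 60 libraries. Without it the step of GSR from 20 to 100 µg/mL was 0.19 in place of 0.29, that from 100 to 500 µg/mL was 0.26 in place of 0.15 (adjusted p = 0.0187, edgeR), and both passed either way. The second step was lost on leaving out any of 4 other libraries: it fell to 0.10 without replicate 2 or 3 at 100 µg/mL, and its adjusted p was 0.088 and 0.067 without replicates 1 and 3 at 500 µg/mL. Angelica gave 129, 127 and 113 CPM at 20 µg/mL and 143, 145 and 147 at 500 µg/mL (log2 0.24 ± 0.049, adjusted p = 0.00331, edgeR). Without angelica 20 µg/mL replicate 3, the lowest of these, the change was 0.18 with an adjusted p of 0.099.

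At the lowest dose, GSR means of the Poria and Atractylodes set lay above those of the other extracts. The libraries of Atractylodes (142 to 147 CPM) and licorice (131 to 145 CPM) overlapped. Means at 20 µg/mL were 152 CPM with Poria and 144 with Atractylodes, 137 with licorice and 130 with ginseng, and 123 with angelica and 131 with peony. Vehicle stood at 153 ± 3.50 CPM. GSR was called lower than vehicle in 9 of the 12 groups of the sets of licorice and ginseng and of angelica and peony, all but licorice at 100 and 500 µg/mL and angelica at 500 µg/mL. Set and extract cannot be told apart in these levels or in these 9 calls, and the difference between sets was not tested.

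GPX2, a cytosolic peroxidase best known from the gut epithelium (ENSG00000176153, chromosome 14, 64939152 to 64942905, minus strand), rose in 4 extracts. Its vehicle libraries read 453, 425 and 426 CPM. Poria at 500 µg/mL gave 605, 585 and 612 CPM, above 445, 430 and 450 at 20 µg/mL (log2 0.44 ± 0.05). Licorice at 500 µg/mL gave 631, 613 and 573 CPM, above 489, 411 and 462 at 20 µg/mL (log2 0.41 ± 0.05). Both ranges were clear of the low dose. Angelica went from 456, 481 and 490 to 571, 585 and 553 CPM (log2 0.26 ± 0.05). Peony went from 466, 497 and 425 to 559, 554 and 535 CPM (log2 0.25 ± 0.05). These 4 rises were closer in size than those of any other gene that rose in 4 extracts. For peony the adjusted p was 0.000955 over all 60 libraries and 0.074 in a fit of the 6 libraries compared (edgeR), with a log2 change of 0.25 in both.

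GPX4, which reduces lipid peroxides in membranes and holds back ferroptosis (ENSG00000167468, chromosome 19, 1103926 to 1106791, plus strand), differed in level between the sets. Group means were 248 to 290 CPM in the Poria and Atractylodes set, 285 to 310 in the licorice and ginseng set, and 310 to 324 in the angelica and peony set, beside 271 ± 11.6 CPM in vehicle. All neighbouring groups overlapped when ordered by level. Set and extract cannot be told apart in these levels, and the difference between sets was not tested. GPX4 passed over dose with Poria and with none of the other 5 extracts. The Poria libraries read 227, 259 and 257 CPM at 20 µg/mL and 288, 297 and 286 at 500 µg/mL (log2 0.23 ± 0.075, adjusted p = 0.0112, edgeR). Without Poria 20 µg/mL replicate 1, which gave the 227 CPM, the change was 0.17 with an adjusted p of 0.0975, so the call rests on that library.

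MGST1, a membrane-bound transferase with peroxidase activity (ENSG00000008394, chromosome 12, 16347142 to 16609259, plus strand), was raised most by licorice. Licorice gave 197, 203 and 204 CPM at 20 µg/mL, 251, 255 and 244 at 100 µg/mL, and 398, 400 and 385 at 500 µg/mL. Each dose stood clear of the one below it (1.96-fold from 20 to 500 µg/mL, log2 0.97 ± 0.054, adjusted p = 3.04e-20, edgeR). Poria gave 176, 180 and 191 CPM at 20 µg/mL, 200, 208 and 232 at 100 µg/mL, and 270, 283 and 282 at 500 µg/mL (log2 0.61 ± 0.054). The highest Poria library thus lay below the lowest licorice library at 500 µg/mL. The change in angelica was 0.13 (95% interval 0.02 to 0.24) and in peony 0.12 (0.01 to 0.23), and neither passed the threshold.

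ABCC3, an export pump of the sinusoidal membrane that carries glutathione and glucuronide conjugates (ENSG00000108846, chromosome 17, 50634777 to 50692252, plus strand), showed the same order of the 2 extracts. Licorice gave 38.0, 36.9 and 41.3 CPM at 20 µg/mL, 46.5, 48.5 and 49.6 at 100 µg/mL, and 75.0, 80.7 and 76.4 at 500 µg/mL. Poria gave 44.7, 42.1 and 41.7 CPM at 20 µg/mL, 56.0, 50.8 and 49.6 at 100 µg/mL, and 63.6, 64.2 and 60.7 at 500 µg/mL. At 100 µg/mL Poria had the higher mean (52.1 CPM against 48.2 with licorice), its lowest library equalling the highest of licorice at 49.6 CPM. At 500 µg/mL licorice was higher in every library. The log2 changes over dose were 1.00 ± 0.047 with licorice and 0.55 ± 0.047 with Poria, with 0.33 ± 0.048 in peony (adjusted p = 4.06e-06, edgeR). In angelica the log2 change of 0.19 ± 0.048 (adjusted p = 0.0295, edgeR) was lost on leaving out angelica 20 µg/mL replicate 2 or 3 or any library at 500 µg/mL, with log2 changes of 0.16 to 0.20.

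The difference between the Poria and licorice trends was tested directly, and 5 of the 8 genes passed (25.8% of all genes were called). GCLC rose more with Poria, by 0.60 ± 0.049 on the log2 scale (adjusted p = 3.66e-14, edgeR). MGST1 and ABCC3 rose less with Poria, by -0.36 ± 0.076 (adjusted p = 0.000201, edgeR) and -0.44 ± 0.066 (adjusted p = 5.77e-07, edgeR). GCLC thus ranked the 2 extracts in the opposite order to MGST1 and ABCC3. For GCLM the difference was -0.01 with a 95% interval of -0.16 to 0.13, and for GPX2 it was 0.03 (-0.11 to 0.17). GSR (-0.18, adjusted p = 0.0418) and GPX4 (0.28, adjusted p = 0.0472) passed narrowly in edgeR. Neither call was stable when single libraries were left out, although the log2 changes moved little. GSR was lost without any of the 12 except Poria 20 µg/mL replicates 2 and 3, licorice 20 µg/mL replicate 1 and licorice 500 µg/mL replicate 3 (-0.16 to -0.20), and GPX4 without any except the first 3 of these and licorice 500 µg/mL replicate 2 (0.22 to 0.28). GSS (-0.19, adjusted p = 0.0556, edgeR) did not pass, but did without Poria 500 µg/mL replicate 2 (-0.22) or licorice 20 µg/mL replicate 2 (-0.21). The count was 3 without Poria 20 µg/mL replicate 1, Poria 500 µg/mL replicate 1 or 3, licorice 20 µg/mL replicate 3 or licorice 500 µg/mL replicate 1. Against the extract of its own set, Poria exceeded Atractylodes in 6 genes and was lower in GSS (29.5% of all genes called), and licorice exceeded ginseng in 6 (8.79% called). No gene passed between angelica and peony in edgeR (0.926% called) or DESeq2, with 2 at an unadjusted p under 0.05 (GSR and ABCC3), and the 95% interval for GCLM was -0.12 to 0.18. A joint test that the 6 trends were equal passed for 6 genes (35.1% of all genes called), the exceptions being GSS (adjusted p = 0.0695) and GPX4 (adjusted p = 0.155, edgeR). GSS passed without Poria 500 µg/mL replicate 2, angelica 20 µg/mL replicate 3 or peony 20 µg/mL replicate 2 (adjusted p of 0.04, 0.0441 and 0.0132, edgeR), and GPX4 passed with no filter (adjusted p = 0.00213, edgeR).

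By steps of dose, Poria raised the same 6 genes from 20 to 100 µg/mL (GCLC, GCLM, GSR, GPX2, MGST1 and ABCC3; 18.8% of all genes called) and from 100 to 500 µg/mL (19.3% called). Licorice raised 5 in the first step, all of those but GCLC (1.52% called), and the same 6 in the second (9.12% called). In the first step of Poria, GPX2 had an adjusted p of 0.0296 (edgeR) and a log2 change of 0.15, which was 0.11 without the deviating replicate 1 at 100 µg/mL and did not pass then, nor without replicate 2 at 100 µg/mL or replicate 1 or 2 at 20 µg/mL. In the first step of licorice the count was 3 without licorice 20 µg/mL replicate 2, with GSR at 0.17 and GPX2 at 0.18, and GSR did not pass without licorice 20 µg/mL replicate 3 or 100 µg/mL replicate 1 either (0.19 and 0.16). In the second step of licorice, GPX2 (0.16) was lost without licorice 100 µg/mL replicate 1 or 3 or 500 µg/mL replicate 1 or 2. The first step gave 0 calls in edgeR in angelica (0.00621% of all genes called), peony (0.0249%), Atractylodes (0.0%) and ginseng (0.0%). At an unadjusted p under 0.05 these had 2, 2, 2 and 1 of the 8, and DESeq2 called 1, ABCC3 in peony. The second gave GCLM and GPX2 in angelica (0.236% called), GPX2 in peony (1.21% called), and 0 in Atractylodes (0.00621% called) and ginseng (0.0435% called), with 2 each at an unadjusted p under 0.05 and 0 in DESeq2. Without angelica 100 µg/mL replicate 3 neither angelica gene passed (0.23 for GCLM and 0.24 for GPX2), and without angelica 100 µg/mL replicate 2 or 500 µg/mL replicate 2 GPX2 did not. GPX2 in peony (0.20) was lost without any of the 6 libraries but replicate 3 at 500 µg/mL (0.18 to 0.21).

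Against vehicle, 7 genes passed with Poria at 500 µg/mL (47.6% of all genes called), 6 at 100 µg/mL (30.5%) and 0 at 20 µg/mL (3.8%; 1 at an unadjusted p under 0.05, and 0 in DESeq2). Poria at 500 µg/mL was higher in 6 and lower in GSS (log2 -0.13 ± 0.052), whose call was lost without Poria replicate 1 or 3 or vehicle replicate 1 or 2. Licorice had 6 higher at 500 µg/mL (32.4% called), 4 higher at 100 µg/mL (16.4%), and at 20 µg/mL MGST1 higher with GSR and ABCC3 lower (11.2%). Atractylodes had none at 500, 100 or 20 µg/mL (0.889%, 1.35% and 1.08% called) in edgeR or DESeq2, with 0, 0 and 2 at an unadjusted p under 0.05. These lists show the dose order of Poria and licorice again, with the vehicle as a common reference.

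The 3 other extracts differed from vehicle in more genes than they did over dose. Peony at 500 µg/mL had 6 higher (all but GCLC and GSR) and GSR lower (19.7% of all genes called). It had 3 calls at 100 µg/mL (10.0%) and 3 at 20 µg/mL (15.8%). Angelica had 5 higher at 500 µg/mL (GCLC, GCLM, GPX2, GPX4 and MGST1; 18.9%), 3 calls at 100 µg/mL (14.6%) and 5 at 20 µg/mL (24.3%). Ginseng had 3 calls at 500 µg/mL (10.2%), 1 at 100 µg/mL (8.53%) and 3 at 20 µg/mL (13.9%). At 20 µg/mL, ABCC3 was lower than vehicle with licorice, ginseng, angelica and peony, at -0.20 to -0.21 on the log2 scale, and these groups belong to other sets than the vehicle. Leaving out a single library took the peony count at 500 µg/mL to 4 (vehicle replicate 3), the angelica count at 20 µg/mL to 2 (angelica replicate 3 or vehicle replicate 3) and at 100 µg/mL to 0 (angelica replicate 1 or vehicle replicate 3), and the ginseng count at 100 µg/mL to 0 (ginseng replicate 2). Of all 66 calls against vehicle, wortmannin included, 43 passed whichever single library was left out.

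**Figure D4:**
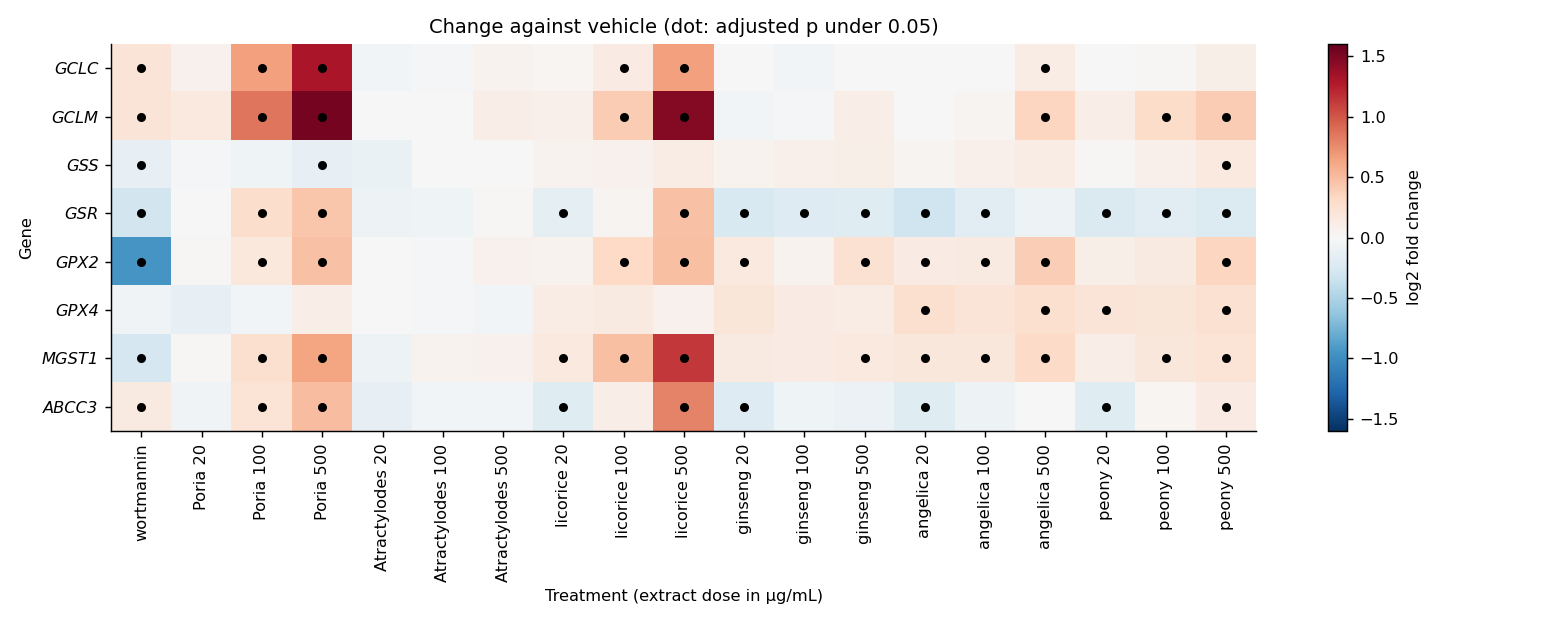
Log2 fold change of each gene against vehicle (colour, red higher and blue lower) in the 19 treated groups, with a dot where the adjusted p was under 0.05. Red deepens from 20 to 500 µg/mL with Poria and licorice up to 1.53 for GCLM; the deepest blue is GPX2 with wortmannin at -0.95.

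Between wortmannin and vehicle the differences of the 8 genes went in both directions. Drug, set and DMSO cannot be told apart in them. Of the 8 genes 7 passed, beside 46.3% of all genes. These were 3 higher (GCLC, GCLM and ABCC3) and 4 lower (GSS, GSR, GPX2 and MGST1). GPX2 fell farthest, from 453, 425 and 426 CPM to 230, 222 and 224 CPM (1.93-fold lower, log2 -0.95 ± 0.05, adjusted p = 1.08e-21, edgeR). That was the lowest level of GPX2 in the 20 groups, the next being 424 CPM with Atractylodes at 100 µg/mL. GSR fell from 152, 150 and 157 to 124, 126 and 123 CPM (log2 -0.30 ± 0.049), and MGST1 from 198, 171 and 170 to 152, 142 and 154 CPM (log2 -0.27 ± 0.054). GCLC rose to 89.6, 90.7 and 96.1 CPM (log2 0.20 ± 0.035) and GCLM to 35.3, 34.8 and 37.4 CPM (log2 0.20 ± 0.053). Both ligase subunits were thus higher while the peroxidase GPX2 and the reductase were lower. The calls of GSS (-0.13) and ABCC3 (0.14) were small: GSS was lost without any library but vehicle replicate 3, and ABCC3 without vehicle replicate 3 or wortmannin replicate 2, or with no filter. Of the 10 hepatocyte markers 6 were higher with wortmannin than with vehicle (ALB, TTR, APOA2, APOB, SERPINA1 and TF), with a median of 0.17 over the 10, TTR at 1.56 being farthest. LYZ (log2 0.72) and VWF were higher, and ACTA2 (log2 -0.30) and PECAM1 lower, with VWF and PECAM1 under 2 CPM. The calls of TF, VWF and PECAM1 did not pass under every alternative. The part of these markers in the results was not tested.

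Of 68 other genes listed for glutathione supply, use, breakdown and transport, 57 were tested. Over dose, 17 rose and 20 fell with Poria, beside 43.5% of all genes called and 22.3% higher, with a median log2 change of -0.07 beside -0.01 over all genes. With licorice 18 rose and 7 fell, beside 21.3% called and 11.0% higher, with a median of 0.06 beside 0.0. Angelica gave 4 and 0 (1.22% called), peony 7 and 2 (3.49% called), and Atractylodes and ginseng 0 and 0 in edgeR (5 genes each at an unadjusted p under 0.05; DESeq2 called 0 and 1). Wortmannin against vehicle gave 28 higher and 16 lower, beside 46.3% of all genes called. The counts of the smaller groups of genes that follow are to be read against these same shares.

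Genes that supply the amino acids of glutathione rose in 3 extracts. SLC7A11, which imports cystine, rose with Poria from 35.7 ± 3.70 to 93.3 ± 3.82 CPM (log2 1.38 ± 0.075, adjusted p = 3.48e-21, edgeR). It rose with licorice from 32.7 ± 2.65 to 63.2 ± 2.45 CPM (log2 0.95), with peony from 34.3 ± 2.92 to 64.7 ± 0.67 CPM (log2 0.91), and was higher with wortmannin than with vehicle (49.3 ± 2.44 against 27.7 ± 0.841 CPM, log2 0.83). In peony SLC7A11 thus rose as far as in licorice, although GCLC there changed by 0.07 (95% interval 0.0 to 0.14) and did not pass. Of the 9 tested genes of precursor supply, 5 rose with Poria, 4 rose and 1 (GLUL, glutamine synthetase, log2 -0.09) fell with licorice, and 5 rose with peony. GLUL was lost on leaving out licorice 20 µg/mL replicate 1 or 3 or 500 µg/mL replicate 2 or 3. Among the 9, the amino acid transporter SLC1A5 rose with Poria (log2 0.51), licorice (log2 0.48) and peony (log2 0.21, adjusted p = 0.000175 over all libraries but 0.0506 in a fit of the 6 compared, edgeR), and SLC1A4 with peony (log2 0.27).

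Export pumps rose mainly with Poria and licorice. Of 10 tested transport genes, 5 rose and 3 fell with Poria, 6 rose and 1 fell with licorice, 2 rose with angelica and 1 rose with peony. The 10 include mitochondrial carriers besides pumps, and such carriers were among the falls with Poria and among the rises with licorice. ABCC2, the pump of the bile canaliculus, rose with Poria from 355 ± 5.12 to 729 ± 7.72 CPM (log2 1.04 ± 0.038, adjusted p = 5.03e-28, edgeR). With licorice ABCC2 rose from 344 ± 5.6 to 468 ± 12.8 CPM (log2 0.45), and with peony from 330 to 363 CPM (log2 0.14). ABCC1 rose with Poria by 0.76 and with licorice by 0.35 on the log2 scale. ABCG2, another efflux pump, rose with licorice from 13.1 to 21.5 CPM (log2 0.71), with Poria from 13.8 to 20.9 CPM (log2 0.60) and with angelica from 12.8 to 15.1 CPM (log2 0.24, adjusted p = 0.0225, edgeR). ABCC4, also an efflux pump, rose with Poria from 7.32 to 9.08 CPM and with licorice from 6.8 to 9.24 CPM. With angelica ABCC4 rose from 5.53 to 7.64 CPM (log2 0.46, adjusted p = 0.0155, edgeR). In angelica both calls were lost without 20 µg/mL replicate 3 or 500 µg/mL replicate 1, ABCG2 also without 500 µg/mL replicate 3 and ABCC4 also without 500 µg/mL replicate 2. ABCC2 in peony (adjusted p = 0.0237, edgeR) was lost without 20 µg/mL replicate 2 or 3 or 500 µg/mL replicate 1 or 2. None of these 3 calls passed in a fit of the libraries compared. ABCC6, a related hepatic transporter, went the other way, falling with Poria (log2 -0.59) and with licorice (log2 -0.19). The glutaredoxin GLRX, which removes glutathione from proteins, rose with Poria from 55.8 ± 4.53 to 134 ± 7.38 CPM (log2 1.27). With licorice GLRX rose from 60.4 ± 3.92 to 74.4 ± 2.1 CPM. The mitochondrial GLRX5, which serves iron-sulfur clusters, fell with Poria (log2 -0.49).

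Cytosolic transferases and breakdown genes moved in both directions. Of 12 tested cytosolic transferases, 1 (GSTO1) rose and 6 fell with Poria, 2 rose with licorice, and 5 rose and 4 fell with wortmannin. GSTA1 fell with Poria from 43.4 ± 3.75 to 24.0 ± 1.64 CPM (log2 -0.85) and GSTA2 from 17.1 to 7.94 CPM (log2 -1.11). GSTA1 was lower with wortmannin, at 17.6 ± 1.13 CPM against 40.8 ± 3.08 in vehicle (log2 -1.21), and so was GSTA2 (log2 -1.07). With peony GSTA1 fell (log2 -0.35, adjusted p = 0.00192 but 0.0704 on regressing on the logarithm of dose, edgeR). With angelica GSTA1 and GSTA2 rose (log2 0.39 and 0.46). Reads of GSTA1 and GSTA2 are divided between near-identical sequences by RSEM, so their split is uncertain. Of 11 tested breakdown genes, 3 were higher and 6 lower with Poria, 4 higher and 3 lower with licorice, and 1 higher and 1 lower with peony. The dipeptidase DPEP1 fell with Poria from 5.72 to 2.73 CPM (log2 -1.06), with licorice from 6.62 to 3.88 CPM (log2 -0.77) and with peony from 7.63 to 5.88 CPM (log2 -0.38, adjusted p = 0.0357, edgeR). The peony call was lost without 20 µg/mL replicate 2 or 3 or 500 µg/mL replicate 1 or 3. The gamma-glutamyl transferase GGT1 fell with Poria (log2 -0.14) and licorice (log2 -0.22), and rose with peony (log2 0.31). The aminopeptidase ANPEP fell with Poria (log2 -0.17) and licorice (log2 -0.19). With Poria, GGT1 was lost without 20 or 500 µg/mL replicate 2, and ANPEP without 20 µg/mL replicate 2. ANPEP (log2 0.79), the secreted peroxidase GPX3 (log2 0.85) and the glyoxalase HAGH (log2 0.70) were higher with wortmannin than with vehicle. GSTCD (log2 -0.61) and the mitochondrial carrier SLC25A10 (log2 -0.65) were lower.

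**Figure D5:**
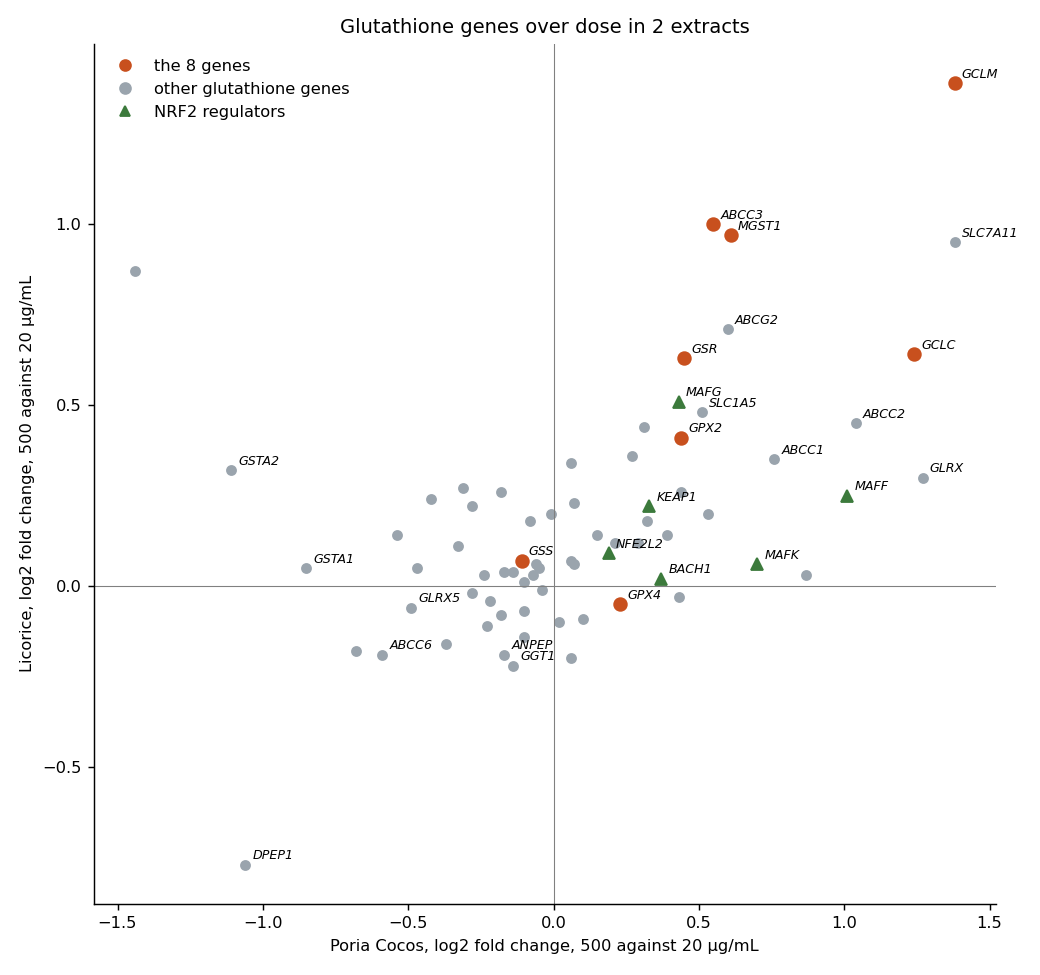
Log2 fold change between 20 and 500 µg/mL with Poria (horizontal axis) and licorice (vertical axis) for the 8 genes, the other glutathione genes tested and the NRF2 regulators. GCLC lies to the right of MGST1 and ABCC3 and below them, at 1.24 with Poria and 0.64 with licorice; GSTA1 and GSTA2 lie on the left.

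All 6 genes of the list of NRF2 regulators rose with Poria, beside 22.3% of all genes, and 2 of 6 with licorice. NFE2L2, which encodes NRF2, went from 173 ± 4.32 to 196 ± 9.45 CPM with Poria (log2 0.19 ± 0.038, adjusted p = 6.23e-05, edgeR) and had 188 ± 3.53 and 201 ± 3.97 CPM with licorice (log2 0.09, adjusted p = 0.0705). KEAP1 rose in both, by 0.33 and 0.22, as did the small MAF gene MAFG, by 0.43 and 0.51. BACH1 rose with Poria (log2 0.37) and was at 31.4 and 31.8 CPM with licorice. NFE2L2 fell with peony (log2 -0.27 ± 0.038, from 179 to 149 CPM) and with angelica (log2 -0.19 ± 0.038, from 187 to 164 CPM). The angelica call had an adjusted p of 0.00234 over all libraries and 0.119 in a fit of the 6 compared (edgeR). GCLM thus rose in 4 extracts in which NFE2L2 transcripts rose, fell or did not pass. These are transcript levels, and NRF2 protein was not measured.

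Across the 20 group means, similarity of pattern is given as a description. The groups share a cell line, and vehicle and wortmannin lie outside the 3 sets of the extracts. GCLC and GCLM had a Pearson r of 0.937, GCLM and ABCC3 0.925, GCLM and GSR 0.866, and GCLM and MGST1 0.813. GPX2 correlated less with the ligase (0.327 with GCLC and 0.457 with GCLM) than with MGST1 (0.734). GSS and GPX4 ran with each other (0.656) rather than with GCLC (-0.374 and -0.141). Over 10448 genes that averaged 5 CPM or more, the patterns most like that of GCLC were those of GPAT3 (r = 0.988), ABCC2 (0.986) and PCYT1A (0.985). For GCLM they were ABCG2 (0.976), SRXN1 (0.971), which encodes sulfiredoxin, and AKR1B10 (0.97), an aldo-keto reductase. For MGST1 the leading pair was NQO1 (0.962), a quinone reductase, and TALDO1 (0.952), and for ABCC3 they were TSKU (0.936), FECH (0.925) and GCLM itself. NLN, TNFRSF10A and POLR1B led for GSR (0.975, 0.97 and 0.97), and ELAC2, POLR3E and KARS1 for GPX2 (0.96, 0.956 and 0.955). RPS2, FOXRED1 and C18orf21 led for GSS (0.911, 0.909 and 0.906), and UCKL1, SDF4 and GUK1 for GPX4 (0.954, 0.951 and 0.946).

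Levels of different genes compare only per length. In vehicle, per kilobase of merged exons, GPX2 stood at 290 ± 10.5 CPM and GPX4 at 134 ± 5.75 CPM, above GSR at 40.7 ± 0.932, MGST1 at 24.2 ± 2.17 and GSS at 11.9 ± 0.444. GCLC followed at 9.29 ± 0.31, GCLM at 5.77 ± 0.402 and ABCC3 at 4.65 ± 0.139 (SD, n = 3). The peroxidases thus led and the ligase subunits and the pump came last. Per kilobase of the longest transcript the value of MGST1 was 83.6, which put it above GSR at 47.9, and GCLC was at 21.1 and GCLM at 6.44.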

How the data were processed

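The authors deposited expected counts per gene, estimated by RSEM, after FastQC 0.11.9, Trim Galore 0.6.5, STAR 2.7.3a and RSEM 1.3.3 with hg38, per the submitters' processing notes. Libraries came from a directional kit and paired reads of 100 bases, per the labels' protocols. The annotation release is not given in the sources used here. Of values above 0, 76.05% are whole, and all were rounded here. Of 270 columns, 60 were named by the samples and used, and 210 were not. Ensembl identifiers were matched to symbols and GENCODE v29 coordinates. Of 112 listed symbols 111 were found.

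A single edgeR 4.0.16 model (quasi-likelihood; R 4.3.3 and limma 3.58.1) took all 60 libraries, with a mean per group, TMM factors of 0.926 to 1.03, filterByExpr (minimum count 10, minimum total 15), 40 residual and 8.17 prior degrees of freedom and a prior count of 0.125. Comparisons numbered 42: each treatment against vehicle, 500 against 20, 100 against 20 and 500 against 100 µg/mL within extracts, 4 differences between trends, and a joint test. Benjamini-Hochberg adjustment ran over the 16093 genes tested within a comparison, at a threshold of 0.05. Intervals are 2.01 SE wide on each side. The script was tested on simulated data.

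The members and lists were chosen with earlier results of these data known. Besides the 8 genes, the text names up to 4 rises and 4 falls of smallest p per extract trend and for wortmannin among the other glutathione genes and NRF2 regulators with an adjusted p under 0.05 and at least 5 CPM in a group, NFE2L2, KEAP1, BACH1 and MAFG in the Poria and licorice trends, and the 3 genes of most similar group means to each member. GLUL, GSTO1, the markers, and SLC1A5, DPEP1, GGT1, ANPEP and ABCG2 with Poria, ABCC1 and ABCC2 with licorice and ABCC2 with peony were named after their values were seen. So were ABCC4 with Poria and licorice and GLRX with licorice. Alternatives were DESeq2 1.42.0 (size factors, and its own test), a mean of at least 1 CPM, no filter, only the libraries compared, a regression on log dose, the replicate number as a block, leaving out each library, the longest transcript as length, and CPM without TMM. The labels do not say what a replicate number marks. Deviations correlated above 0.1 in 81 of 135 same-numbered pairs within a set and in 54 of 270 pairs with different numbers. The main model did not take the numbers as a pairing, so any such shared deviation stays in the spread behind its p-values. Results with the block are given below. A gene among those whose pattern was most like that of MGST1, and a marker gene, are not reported here.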

Additional observations from a re-analysis of the deposited data

Results flagged for a closer look

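A total of 18 differences between dose trends (500 against 20 µg/mL) passed the test of the difference itself in edgeR and are given as log2 values. Poria minus licorice gave 0.60 for GCLC, 0.28 for GPX4, -0.18 for GSR, -0.36 for MGST1 and -0.44 for ABCC3. Poria minus Atractylodes, within a set, gave 1.15 for GCLC, 1.28 for GCLM, 0.35 for GSR, 0.38 for GPX2, 0.46 for MGST1, 0.46 for ABCC3 and -0.22 for GSS. Licorice minus ginseng, also within a set, gave 0.62 for GCLC, 1.24 for GCLM, 0.59 for GSR, 0.32 for GPX2, 0.95 for MGST1 and 0.88 for ABCC3. Of these 18, 16 passed under every alternative run, and GSR and GPX4 in Poria minus licorice did not. Single outlying libraries were not tested for in these groups of 3.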

How the results depend on the processing

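No called change of the 8 genes or of the other named genes changed sign under any alternative. The changes of ABCC4 with Poria and licorice and of GLRX with licorice were not followed under the alternatives. Counts of the 8 genes stayed within 1.5 times of the reported count under DESeq2 size factors and a mean of at least 1 CPM in all 42 comparisons. With only the libraries compared, the count was 0 for licorice at 20 and ginseng at 100 µg/mL, 3 for angelica at 20, 5 for peony at 100 and 1 for peony at 20 µg/mL, all against vehicle, 2 for angelica over dose and 3 for licorice 100 against 20 µg/mL. Other glutathione genes in angelica then numbered 2. The regression on log dose gave 2 for angelica. For peony 100 against 20 µg/mL the DESeq2 test gave 1 and no filter gave 1, in each case ABCC3. For other glutathione genes in ginseng over dose, the DESeq2 test gave 1 and no filter gave 1. The cause was not tested.

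With the replicate number as a block, the count for peony 100 against 20 µg/mL was 1 (ABCC3) in place of 0, and the other 41 counts stayed within 1.5 times. The block added 8 calls of the 8 genes and lost none. Besides ABCC3 these were GCLC for angelica over dose (adjusted p = 0.0311), GSS in Poria minus licorice (0.03) and in the joint test (0.0282), GPX4 in Poria minus Atractylodes (0.04), and against vehicle GSS for licorice at 500 (0.0328), GPX4 for angelica at 100 (0.0408) and GPX2 for peony at 100 µg/mL (0.0358), all in edgeR. Deviations of same-numbered libraries of a set had a median correlation of 0.15 (135 pairs), those of different numbers -0.059 (270 pairs). Same-numbered libraries of different sets had a median of -0.0041 (435 pairs). The block gave a number the same effect in all sets, so it could not take out a deviation shared only within a set. A block within sets was not run.

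Leaving out each library in turn gave 5 to 6 calls for wortmannin, 6 to 7 for Poria at 500, 1 to 3 for licorice at 20, 0 to 2 for ginseng at 100, 0 to 3 for angelica at 100, 2 to 5 for angelica at 20, 4 to 8 for peony at 500 and 1 to 4 for peony at 100 µg/mL, all against vehicle. Over dose it gave 6 to 8 for Poria, 6 to 6 for licorice, 2 to 4 for angelica and 3 to 4 for peony. By steps it gave 3 to 5 for licorice 100 against 20, 0 to 1 for peony 100 against 20, 0 to 2 for angelica 500 against 100 and 0 to 1 for peony 500 against 100 µg/mL. The Poria and licorice trends differed in 3 to 5. Other glutathione genes over dose in angelica numbered 2 to 5. Licorice at 20 µg/mL fell to 1 without its replicate 2 or 3 or vehicle replicate 3, and peony at 100 µg/mL to 1 without its replicate 1 or vehicle replicate 3. Each call of the 8 genes that an alternative lost had a log2 change of 0.32 or less in size. The number of libraries limits the precision, and the smallest count of the 8 genes in a library was 714.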
